A study of Mus musculus with 13 samples.

Results

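The 10 genes described here are 8 DNA repair factors (Nbn, Rad54b, Xpa, Rad23b, Fancg, Rad1, Aptx and Rpa3) and 2 targets of the p53 tumour suppressor (Rrm2b and Trp53inp1). They were picked by name from the 56923 gene IDs of the count tables, by matching each Ensembl ID without its version to a symbol. All 10 passed the filter on low counts, which left 10422 IDs for testing. All 10 also lie in 3 stretches of chromosomes 4, 6 and 15 where the gene names of the tables match the counts, as set out below.

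Cells repair DNA by several pathways, each for a kind of lesion. Nbn, part of the Mre11-Rad50-Nbn complex, senses double-strand breaks, and Rad54b helps strand exchange in homologous recombination. Xpa and Rad23b act in nucleotide excision repair, which removes bulky adducts, Xpa by verifying the damage and Rad23b as the partner of the damage sensor Xpc. Fancg belongs to the Fanconi anaemia core complex for crosslinks, Aptx removes adenylate groups left at broken ends, Rpa3 is the smallest subunit of replication protein A, which coats single-stranded DNA, and Rad1 forms the checkpoint clamp with Rad9 and Hus1. When damage activates p53, it raises transcription of Rrm2b, a small subunit of ribonucleotide reductase that supplies deoxynucleotides, and of Trp53inp1, a nuclear protein that modulates p53 activity and autophagy. Rapidly dividing lymphoid cells rely on these pathways during replication.

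The promoters of Rad1 and Rpa3 are printed because these were the members that passed the test between the groups both with the file number in the model and within file number 7, fits described below. RefSeq windows of GRCm38.p6, running from 250 bases before to 50 after the transcription start, were held for 6 of the 10 members (Aptx, Fancg, Xpa, Rad23b, Rpa3 and Rad1), 8 windows in all because Rad1 and Aptx have 2 each. Capitals mark the ETS-type letters CCGGAAG on either strand, which were chosen with these sequences in view. The first Rad1 window is chr15:10485768-10486067 on the plus strand, and the Rpa3 window is chr6:8259092-8259391 on the minus strand.
Rad1: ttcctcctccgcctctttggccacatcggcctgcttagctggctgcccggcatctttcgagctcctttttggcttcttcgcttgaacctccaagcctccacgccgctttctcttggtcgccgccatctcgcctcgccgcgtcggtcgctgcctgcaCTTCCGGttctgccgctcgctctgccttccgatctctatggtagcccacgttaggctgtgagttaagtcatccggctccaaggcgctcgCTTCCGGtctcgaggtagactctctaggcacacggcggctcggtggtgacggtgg
Rpa3: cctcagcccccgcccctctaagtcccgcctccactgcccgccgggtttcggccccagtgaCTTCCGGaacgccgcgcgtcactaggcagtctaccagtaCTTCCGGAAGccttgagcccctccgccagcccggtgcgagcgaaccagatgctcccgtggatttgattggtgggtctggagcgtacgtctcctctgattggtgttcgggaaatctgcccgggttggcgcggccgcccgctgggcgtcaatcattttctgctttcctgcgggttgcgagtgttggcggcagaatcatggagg
This Rad1 window held the letters at 2 places, starting at -94 and -5 from the start site. The Rpa3 window held them at 3 places, starting at -190, -151 and -148, and the last 2 of these overlap. The second Rad1 window, which overlaps the first, and 1 Aptx window also held them. A match was thus found in 4 of the 8 windows, or 3 of the 6 members. Over all 32851 promoter windows of this length the share was 8.86%. Because the letters were chosen with these sequences in view, setting the counts beside that share is not a test. The letters CCAAT (NF-Y) were in 4 of the 8 windows and in 37.4% of all windows, and GGGCGG (SP1) in 3 of the 8 and in 35.7%, with both strands searched. TGACGTCA (CRE) was found in 1 Aptx window alone and in 1.79% of all windows. The letters TTTGGCGC or TTTCGCGC (E2F) were in none of the 8 and in 0.813% of all. The p53 half-site was matched in Fancg alone and in 8.36% of all, while the p53 targets Rrm2b and Trp53inp1 had no window to search. These matches are descriptions of letters in a window.

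RNA was sequenced from cells sorted for CD45, the surface marker of blood cells, out of tumours of EL4, a mouse T-lymphoma line. The tumours grew under the skin of mice aged 6 to 8 weeks for about 20 days after injection of 500000 EL4 cells, which carried either an empty vector (7 libraries, called vector) or a knockout of PSGL1, an adhesion receptor for selectins (6 libraries, called PSGL1_KO). The mice of both groups were described alike, with no strain or host deletion named, and the labels do not say whether the knockout line is 1 clone. The treatment label of the vector libraries spells the line with another number than their titles do. EL4 cells are themselves of T lineage and carry CD45, so the sort can hold tumour cells beside host immune cells. Replicates carry a number in their titles and nothing ties a number to a mouse, so the p-values reflect only how these libraries vary, and that may be partly technical. In such bulk RNA, fewer cells of a type and less RNA per cell cannot be told apart.

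Assigned gene counts ran from 3710817 to 5712566 per library, which was 10.5% to 12.5% of all reads counted. Vector replicate 5 stood apart, with 34.5% of its gene counts on IDs annotated to the mitochondrial chromosome, which lie outside the stretches described next, against 10.0% to 17.8% elsewhere. Gene names and counts matched in the regions 4:3549041-59801589, 6:3457096-17341452 and 15:9071260-38078854 of GRCm38. There, 53.5% of protein-coding genes reached 20 CPM (counts scaled to a common library total) on average, against 17.1% of those elsewhere, while noncoding genes and pseudogenes did so in 2.35% and 3.10%. Ribosomal protein genes showed the same contrast, with a median of 5646 CPM for the 2 inside and 0.526 CPM for the 74 outside. The targeted gene Selplg lies outside, on chromosome 5, with 3 to 63 counts in PSGL1_KO and 11 to 53 in vector libraries, and these counts cannot check the labels. The numbers in the file names begin with 3 in 4 libraries (vector replicates 1 and 2, PSGL1_KO replicates 1 and 2) and with 7 in the other 9. What this number records is not stated.

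Per kilobase of exon, the members spanned a wide range of levels. Rpa3 was highest at 151 ± 45.04 CPM per kb (SD, n = 13), followed by Rad23b at 124 ± 18.8, and Rpa3 exceeded Rad23b in 10 of 13 libraries. Xpa at 54.0 ± 14.1 and Fancg at 35.3 ± 3.93 CPM per kb came next, with Xpa above Fancg in 12 libraries. Rad1 (18.8 ± 3.31 CPM per kb) and Trp53inp1 (18.2 ± 3.41) did not differ beyond their spread, since Rad1 was above in 6 of 13 libraries. Aptx at 9.31 ± 1.33, Nbn at 9.12 ± 2.36 and Rrm2b at 8.60 ± 1.93 CPM per kb were likewise interleaved, and Rad54b was lowest at 6.38 ± 0.789. The length used for Rad54b includes the 35.8% of its exonic bases shared with Fsbp, so its place in this order is uncertain. Each length is the union of all annotated exons, which need not all be in the RNA of these cells. Before division by length, Rad1 had a mean of 139 CPM, above Fancg at 134 and Xpa at 102 CPM. Its place in the order thus rests on its 7400 exonic bases. Per kilobase, Rad23b exceeded Xpa, Fancg exceeded Rad1 and Trp53inp1 exceeded Aptx in all 13 libraries.

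**Figure D1:**
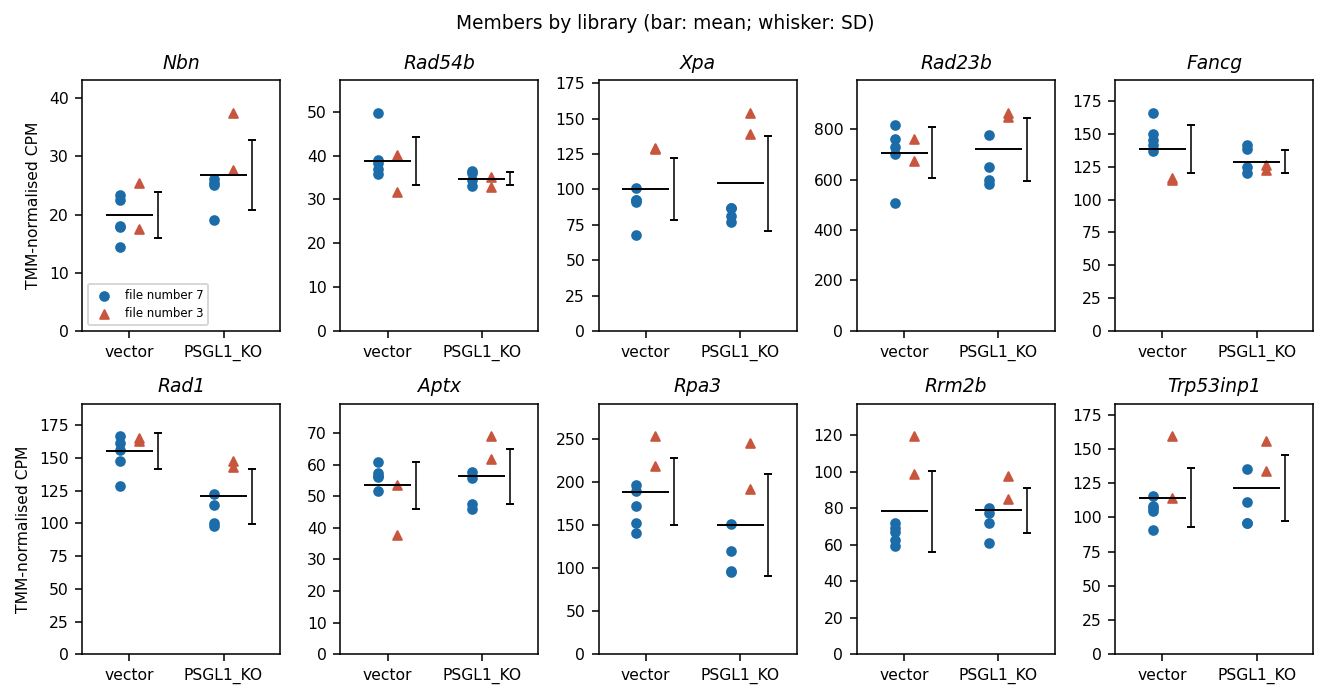
TMM-normalised CPM of each member (vertical axes, from 0) in the vector and PSGL1_KO libraries; each point is 1 library, circles and triangles are libraries with file numbers beginning with 7 and 3, and bars and whiskers are the mean and SD. The triangles of Xpa and Rrm2b sit above all circles, and the PSGL1_KO circles of Rad1 lie below all vector circles.

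None of the 10 members passed the test between PSGL1_KO and vector libraries (edgeR quasi-likelihood test with Benjamini-Hochberg adjustment over all IDs tested, threshold 0.05), where 14.5% of all IDs and 25.3% of the tested IDs of the stretches did. The groups overlapped in every member, and they did not overlap for 6.54% of all IDs. At an unadjusted p under 0.05 there were 2, Nbn and Rad1, against 27.7% of all IDs. DESeq2 called 1, Rad1, against 12.2% of the IDs it tested. The 8 repair factors had a median log2 fold change of -0.04, with 4 above and 4 below 0, beside medians of -0.01 over all IDs tested and 0.20 over the 375 tested IDs of the 3 stretches. When the file number entered the model, Rad1 and Rpa3 were lower in PSGL1_KO, 2 of 10 members against 25.2% of all IDs called in either direction and 11.6% called lower. Of the stretch IDs 39.1% were called in this fit, 9.77% of them as lower. Neither count of members called in either direction was above the share of all IDs called in its fit. Among lower calls alone, the 2 of 10 members were above the shares of all IDs and of stretch IDs, and this was not tested.

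**Figure D2:**
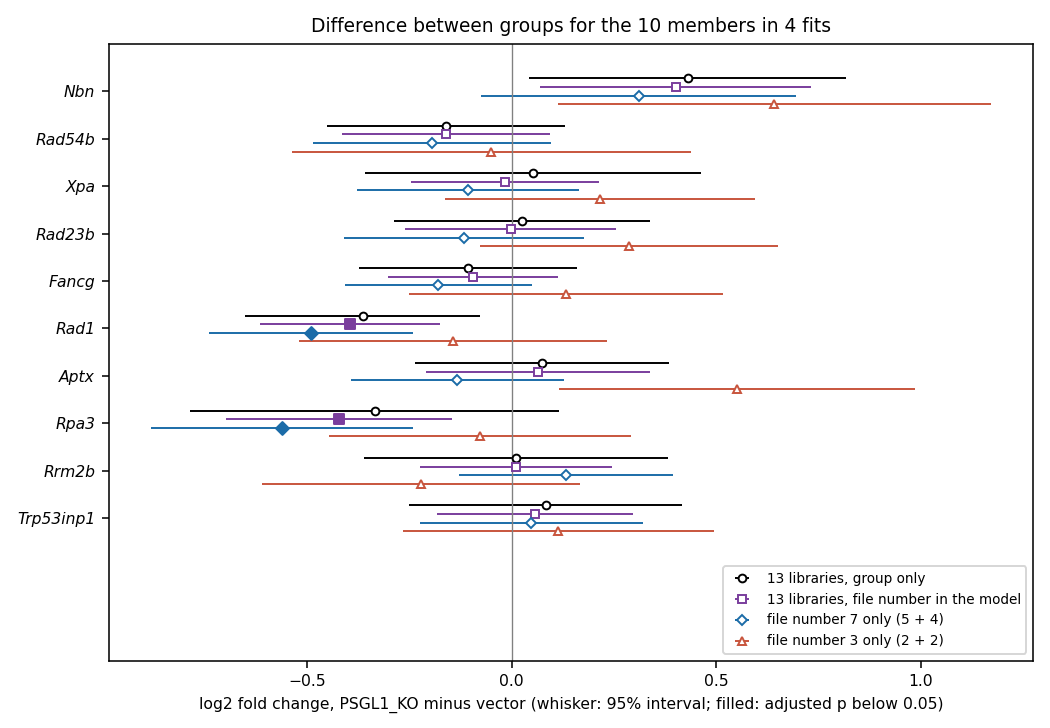
Log2 fold change between PSGL1_KO and vector (horizontal axis) with its 95% interval for each member in 4 fits: 13 libraries with group only, 13 libraries with the file number in the model, and the libraries of file number 7 or 3 alone. Filled symbols mark an adjusted p below 0.05, which Rad1 and Rpa3 alone reached, with the file number in the model and within file number 7.

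Among the double-strand break genes, Nbn (ENSMUSG00000028224, chr4:15957925-15992589 in GRCm38, plus strand, 16 exon blocks) ran from 14.4 through a median of 18.1 to 25.5 CPM in vector libraries. In PSGL1_KO libraries it ran from 19.1 through 25.8 to 37.5 CPM. The groups overlapped, the 2 highest values were PSGL1_KO replicates 1 and 2, and the lowest was vector replicate 4. The difference was 1.35-fold, a log2 fold change of 0.43 ± 0.19 (SE), which did not pass (edgeR adjusted p = 0.134). With 65 to 155 counts per library, Nbn was the least deeply counted member. The estimate was positive in every fit run on it, at 0.31 within file number 7, 0.64 within file number 3 and 0.23 when libraries were scaled on the stretch genes. With the file number in the model Nbn had an edgeR adjusted p of 0.0700, and it passed only when vector replicate 5 (adjusted p = 0.0385) or PSGL1_KO replicate 3 (adjusted p = 0.0311) was left out.

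Rad54b (ENSMUSG00000078773, chr4:11558922-11615805, plus strand, 18 exon blocks) ran from 31.7 through 38.3 to 49.7 CPM in vector and from 32.9 through 34.8 to 36.5 CPM in PSGL1_KO libraries. All PSGL1_KO values lay within the vector range, and the highest value belonged to vector replicate 5, the library that stood apart. The log2 fold change was -0.16 ± 0.14 (edgeR adjusted p = 0.502). Of the exonic bases of Rad54b, 35.8% are shared on the same strand with Fsbp, so how reads were split between the genes is uncertain.

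In nucleotide excision repair, Xpa (ENSMUSG00000028329, chr4:46155347-46196311, minus strand, 9 exon blocks) ran from 67.7 through 92.6 to 130 CPM in vector and from 77.3 through 86.9 to 154 CPM in PSGL1_KO libraries. The 4 libraries of file number 3 held its 4 highest values, 129 to 154 CPM, above the 67.7 to 101 CPM of the other 9. The difference between the groups was 0.05 on the log2 scale, with a 95% interval from -0.36 to 0.46, and became -0.02 (-0.25 to 0.21) with the file number in the model. An overlap of 4.07% of its exonic bases with Ncbp1, on the opposite strand, matters only if the counting ignored strand, which is not given in the sources used here.

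Rad23b (ENSMUSG00000028426, chr4:55350043-55392237, plus strand, 10 exon blocks) was the most deeply counted member, at 2083 to 4602 counts. It ran from 505 through 729 to 817 CPM in vector and from 583 through 713 to 864 CPM in PSGL1_KO libraries. Its lowest value was in vector replicate 5 and its highest pair in PSGL1_KO replicates 1 and 2. The log2 fold change was 0.03 with a 95% interval from -0.29 to 0.34, and 0.00 (-0.26 to 0.26) with the file number in the model.

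For crosslink repair, Fancg (ENSMUSG00000028453, chr4:43002343-43010506, minus strand, 11 exon blocks) ran from 115 through 141 to 166 CPM in vector and from 120 through 126 to 141 CPM in PSGL1_KO libraries. The vector values spanned those of the knockout group, with both vector libraries of file number 3 lowest. Its log2 fold change was -0.11 ± 0.13 (edgeR adjusted p = 0.645). Aptx (ENSMUSG00000028411, chr4:40682382-40703194, minus strand, 11 exon blocks) ran from 37.9 through 56.2 to 60.9 CPM in vector and from 46.0 through 56.7 to 69.0 CPM in PSGL1_KO libraries. Its log2 fold change was 0.07 ± 0.15 (edgeR adjusted p = 0.802). Within file number 3 it was 0.55 ± 0.22 (edgeR adjusted p = 0.0550), and within file number 7 it was -0.13 ± 0.12 (adjusted p = 0.490). The 2 PSGL1_KO libraries of file number 3 gave the highest Aptx values of all 13, while vector replicate 2 gave the lowest.

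The clamp gene Rad1 (ENSMUSG00000022248, chr15:10486018-10499063, plus strand, 4 exon blocks) ran from 128 through 161 to 166 CPM in vector libraries and from 97.9 through 118 to 148 CPM in PSGL1_KO libraries. All but 1 of the vector values exceeded 147 CPM, and the groups overlapped through vector replicates 4 and 6 and PSGL1_KO replicates 1 and 2. The difference was 0.777-fold, or -0.36 ± 0.14 on the log2 scale, and did not pass in edgeR (adjusted p = 0.0848), while DESeq2 gave -0.37 with an adjusted p of 0.0473. Once the file number was in the model, Rad1 was lower by -0.39 ± 0.11 on the log2 scale, or 0.761-fold (edgeR adjusted p = 0.00818). It then stayed below the threshold without any 1 library, at adjusted p from 0.00556 to 0.0298.

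Within file number 7, Rad1 ran from 128 through 156 to 166 CPM in 5 vector libraries and from 97.9 through 107 to 122 CPM in 4 PSGL1_KO libraries. These groups did not overlap, as was so for 18.6% of all IDs and for no other member. The log2 fold change there was -0.49 ± 0.12 (edgeR adjusted p = 0.00733), where 20.8% of all IDs were called. Within file number 3 the 2 vector libraries were at 163 and 166 CPM and the 2 PSGL1_KO libraries at 143 and 148 CPM, a log2 fold change of -0.14 ± 0.19 (edgeR adjusted p = 0.641). The SEs of the members in this fit rest largely on a spread shared across IDs, not on the spread of each member alone. No member passed within file number 3, where 23.2% of all IDs did. At an unadjusted p under 0.05 there were 2 (Nbn and Aptx), against 34.8% of all IDs. The difference between the log2 fold changes of Rad1 within file numbers 3 and 7 was 0.33 ± 0.21 (edgeR adjusted p = 0.429), with a 95% interval from -0.09 to 0.76. Rad1's annotated transcripts hold stretches of over 95% identity with transcripts of other genes, so reads there may have been placed or discarded unevenly.

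Rpa3 (ENSMUSG00000012483, chr6:8255936-8259173, minus strand, 4 exon blocks) ran from 141 through 190 to 253 CPM in vector libraries and from 95.4 through 136 to 245 CPM in PSGL1_KO libraries. The 3 lowest values were PSGL1_KO replicates 4, 5 and 6, and the libraries of file number 3 held 4 of the 5 highest. With group only the log2 fold change was -0.33 ± 0.22 (edgeR adjusted p = 0.340). Adding the file number to the model, Rpa3 was lower in PSGL1_KO by -0.42 ± 0.13, or 0.746-fold (edgeR adjusted p = 0.0221). That call was lost without PSGL1_KO replicate 4 (adjusted p = 0.0504), replicate 5 (0.0739) or replicate 6 (0.0649).

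Within file number 7, Rpa3 ran from 141 through 172 to 196 CPM in vector and from 95.4 through 108 to 152 CPM in PSGL1_KO libraries, overlapping through PSGL1_KO replicate 3. The log2 fold change there was -0.56 ± 0.15 (edgeR adjusted p = 0.0147), against -0.08 ± 0.19 (adjusted p = 0.813) within file number 3. The difference between them was 0.47 ± 0.26 (edgeR adjusted p = 0.370). None of the 10 members passed this test of the difference in edgeR, where 1.65% of all IDs did, and Aptx came nearest at 0.67 ± 0.24 (adjusted p = 0.154). Aptx alone of the members had an unadjusted p under 0.05 there, against 17% of all IDs, and DESeq2 called 0 members in this test.

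Of the p53 targets, Rrm2b (ENSMUSG00000022292, chr15:37923952-37961318, minus strand, 10 exon blocks) ran from 59.2 through 69.3 to 119 CPM in vector and from 60.9 through 78.8 to 97.5 CPM in PSGL1_KO libraries. Its 4 highest values, 85.2 to 119 CPM, came from the 4 libraries of file number 3. The log2 fold change was 0.01 with a 95% interval from -0.36 to 0.38 (edgeR adjusted p = 0.980), and from -0.22 to 0.25 with the file number in the model. The intervals leave room for changes up to 1.30-fold in the first fit and 1.19-fold in the second. Of its exonic bases, 8.04% overlap an antisense gene, Gm49085, and a processed pseudogene, Gm8616, matches 1051 bases at 96.1% identity. Rrm2b also lies near the end of its stretch, with 11 of its 20 nearest protein-coding genes inside it.

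Trp53inp1 (ENSMUSG00000028211, chr4:11156431-11174379, plus strand, 5 exon blocks) ran from 90.5 through 109 to 159 CPM in vector and from 95.6 through 123 to 155 CPM in PSGL1_KO libraries. The groups overlapped over nearly their whole range, and the highest 2 values were vector replicate 1 and PSGL1_KO replicate 2, both of file number 3. Its log2 fold change was 0.08 with a 95% interval from -0.25 to 0.42 (edgeR adjusted p = 0.790). With the file number in the model the interval was -0.18 to 0.30.

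The file number separated several members more than the group did. In the fit with both terms, 4 of 10 members were higher in file number 3 than in file number 7, against 38.4% of all IDs called in either direction and 18.2% called higher. Of the tested IDs of the stretches, where all members lie, 44.7% were called in either direction and 31.6% higher. Xpa was 0.66 ± 0.12 higher on the log2 scale (edgeR adjusted p = 0.000135), or 1.59-fold. Rpa3 was 0.68 ± 0.14 higher (adjusted p = 0.000599). Rrm2b was 0.53 ± 0.12 higher (edgeR adjusted p = 0.00147) and Trp53inp1 0.38 ± 0.12 (adjusted p = 0.0183). The Trp53inp1 call was lost without vector replicate 1 (adjusted p = 0.121) or PSGL1_KO replicate 2 (0.0809), without the filter on low counts (0.0840) and when libraries were scaled on the stretch genes (0.182). Fancg was -0.23 in this fit (edgeR adjusted p = 0.107), and it was lower in file number 3 with scaling on the stretch genes (-0.41, adjusted p = 0.00319) and within vector libraries (-0.40, adjusted p = 0.0465). Both of those fits called 3 members higher and 1 lower. In Xpa and Rrm2b the libraries of the file numbers did not overlap, as was so for 15% of all IDs. This comparison was added after the data had been seen.

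**Figure D3:**
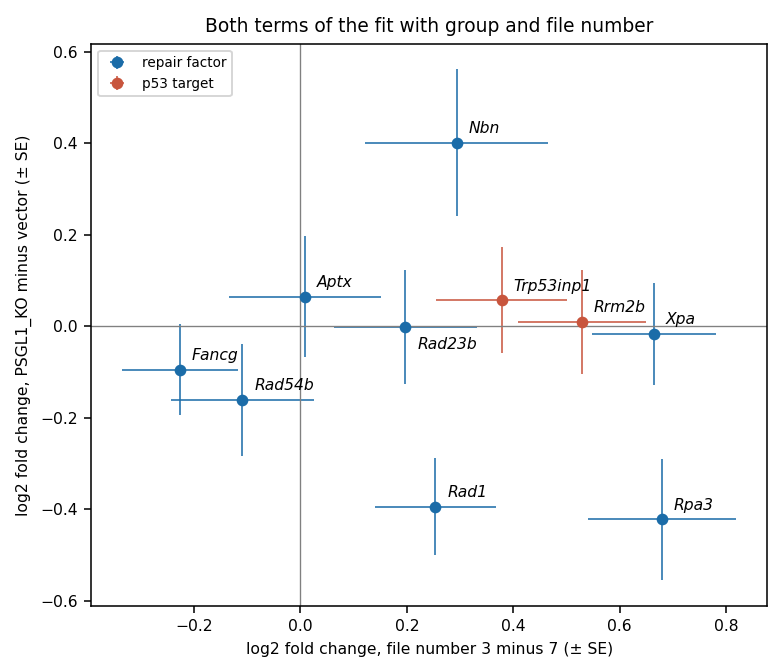
For each member, the log2 fold change of file number 3 against 7 (horizontal axis) and of PSGL1_KO against vector (vertical axis) from 1 fit with both terms; whiskers are standard errors, blue points repair factors and red points p53 targets. Rrm2b and Xpa lie to the right near 0 on the vertical axis, and Rpa3 lies to the right and low.

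The share of each member's variance in log2 CPM shows the same split. File number took 81.9% of it for Xpa, 71.9% for Rrm2b, 52.7% for Rpa3 and 50.9% for Trp53inp1, each more than the group did. Fancg also had more by file number, 43.3% against 8.32% by group, with its values lower in file number 3. The group took 55.4% for Rad1, 34.9% for Nbn and 20.7% for Rad54b, each more than the file number did. Aptx and Rad23b had 96.8% and 79.2% of their variance left after both terms.

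Scaling moved the members' direction. When the scaling factors were computed on the stretch genes alone, the median of all tested IDs shifted from -0.01 to -0.21, and calls went from 940 higher and 572 lower to 601 higher and 1192 lower. Relative to those stretch genes, 7 of the 8 repair factors had negative values, with Nbn as the exception, as had 7183 of the 10422 IDs tested. Rad1 (-0.58, edgeR adjusted p = 0.00184) and Rpa3 (-0.57, adjusted p = 0.0298) passed, against 17.2% of all IDs in either direction. Called lower were 11.4% of all IDs and 10.4% of the tested stretch IDs. When the file number was in the model as well, Rad54b (-0.36, edgeR adjusted p = 0.0372) and Fancg (-0.29, adjusted p = 0.0192) passed beside Rad1 and Rpa3. That made 4 of 10 members lower, against 24% of all IDs and 20.1% of the tested stretch IDs. Xpa, Rad23b, Aptx, Rrm2b and Trp53inp1, all above 0 with the first scaling and group only, were below 0 with this one, and none of these 5 passed in either.

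Other repair, p53 and cell cycle genes of the stretches were read from lists drawn up by pathway. Of 313 listed symbols, 15 beside the members lay in the stretches and were tested. Only Chd7, a chromatin remodeller recruited at double-strand breaks, passed among the 4 repair genes, going from 97.2 ± 24.8 CPM (SD, n = 7) in vector to 173 ± 39.3 CPM (n = 6) in PSGL1_KO libraries. Its log2 fold change was 0.84 ± 0.19 (edgeR adjusted p = 0.00577), and with scaling on the stretch genes it was 0.66 (adjusted p = 0.0519). The other 3 were Sem1 at -0.08, Mms22l at 0.03 and Rnf20 at -0.01.

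**Figure D4:**
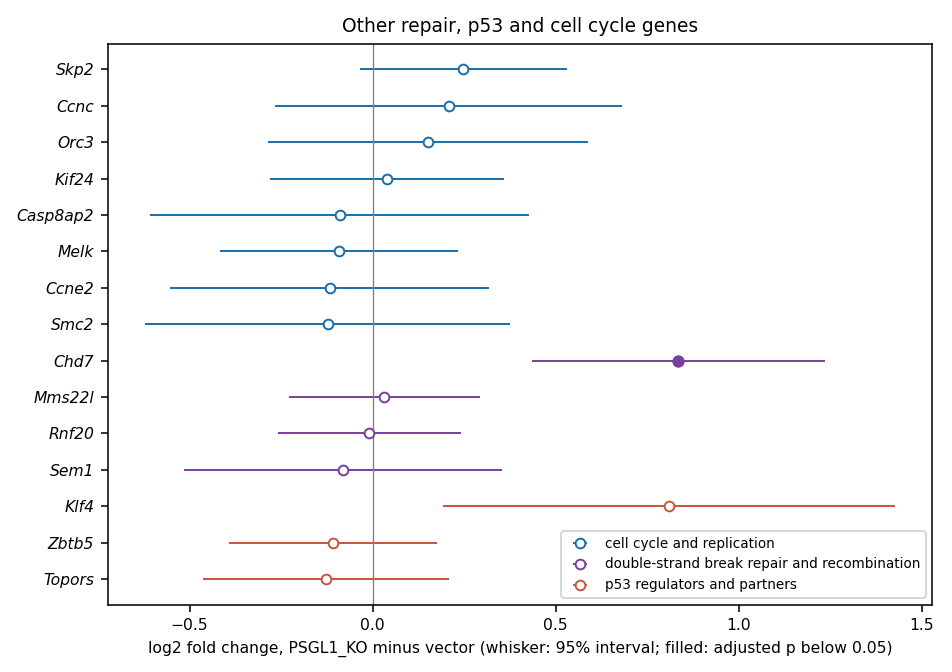
Log2 fold change between PSGL1_KO and vector in the fit with group only (horizontal axis) with its 95% interval for the 15 other genes of repair, p53 and cell cycle lists, coloured by list. Chd7 at 0.84 is the filled symbol, the single gene with an adjusted p below 0.05.

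Of 3 regulators of p53 none passed with group only, and Klf4, a transcription factor that acts on p53 and its target genes, was nearest at 0.81 ± 0.29 (edgeR adjusted p = 0.0748). Klf4 passed with the file number in the model (0.80, adjusted p = 0.0469). Topors, a ligase for p53, was at -0.13 and Zbtb5 at -0.11. None of the 8 cell cycle genes passed with group only, from Skp2 at 0.25 to Smc2 at -0.12, with Ccnc, Orc3, Kif24, Casp8ap2, Melk and Ccne2 between. Of the p53 regulators and cell cycle genes together, 1 (Klf4) had an unadjusted p under 0.05 and DESeq2 called 0. In file number 3 against 7, 5 of the 8 cell cycle genes were higher, where 18.2% of all IDs and 31.6% of the tested stretch IDs were. They were higher by 0.61 for Ccne2, 0.78 for Orc3, 0.83 for Ccnc, 0.91 for Smc2 and 0.93 for Casp8ap2 on the log2 scale. Sem1 (0.61, edgeR adjusted p = 0.00222) and Topors (0.47, adjusted p = 0.00143) were also higher there, and Chd7 was lower (-0.73, adjusted p = 4.4e-05). The 4 members higher in file number 3 moved beside these genes and beside 6 of 12 tested markers of cell types. In either direction, 38.4% of all IDs and 44.7% of the tested stretch IDs were called in this fit. Of the markers, Cav1 (1.11), Cav2 (0.65), Sit1 (0.50) and Il7r (0.41) were higher and Cd72 (-1.05) and Atp6v0d2 (-1.01) lower. The part of these pathway genes and markers in the members' difference was not tested.

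Some cell type markers also differed between the groups, in a fit that called 14.5% of all IDs and 25.3% of the tested stretch IDs. The marker lists were drawn up with earlier results of these data known, so these calls are descriptions only. In the stretches, 3 of 17 macrophage and monocyte markers (Lyn, Tfec and Atp6v0d2) were tested and all 3 were higher in PSGL1_KO, their summed level going from a range of 68.5 to 157 CPM to one of 292 to 519 CPM. Lyn was the largest part of that sum, with a mean going from 58.7 to 247 CPM. Atp6v0d2 went from 55.4 to 111 CPM and Tfec from 8.15 to 21.7 CPM. Which cells the Lyn RNA came from was not tested. With scaling on the stretch genes Atp6v0d2 did not pass (0.81, edgeR adjusted p = 0.0842). Of 12 B-lineage markers, Cd72 and Pax5 were tested and Cd72 was higher, the sum going from 29.9 to 77.5 CPM to 153 to 322 CPM. Of 19 T-lineage markers 4 were tested, with Bach2 higher, Sit1 lower, and Il7r and Tox not passing with group only. Their sum was 434 to 606 CPM in vector and 363 to 557 CPM in PSGL1_KO libraries. Within file number 7 the sum was 474 to 606 and 363 to 472 CPM, and these ranges did not overlap. Taken singly, 18.6% of all IDs did not overlap there. Tox, the largest part of the sum, was lower within file number 7 (-0.41, edgeR adjusted p = 0.0320), as was Sit1 (-0.82, adjusted p = 0.00438). Bach2 was higher (1.36, edgeR adjusted p = 0.00630) and Il7r did not pass. None of 3 tested stromal markers of 23 listed passed, although Col1a2 summed with Cav1 and Cav2 reached 692 to 2239 CPM in vector and 775 to 4120 CPM in PSGL1_KO libraries. The remaining markers lie outside the stretches or below the filter and were not read. The part of these cell types in the values of Rad1 and Rpa3 was not tested.

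The genes whose profiles were most like each member were found by the root mean square difference in centred log2 CPM over the 13 libraries, among 269 or 270 protein-coding genes of the stretches. For Rpa3 they were Ndufa4 at 0.14, a mitochondrial respiratory chain protein, and Sdhaf3 at 0.18, against a median of 0.49 over all those genes. For Rad1 they were Nsmaf at 0.14 and Rpl30 at 0.18 (median 0.42). Xpa was nearest to Ints8 at 0.12 and Smu1 at 0.13 (median 0.39), and Rrm2b to Tmem106b and Ubxn2b, both at 0.15 (median 0.37). Nbn was nearest to Abca1 at 0.21 and Bmt2 at 0.23, the least close of the 10 nearest pairs, and Fancg to 6030458C11Rik at 0.08 and Inip at 0.12. Rad54b went with Zbtb5 and Gba2, Rad23b with Ube2j1 and Golph3, Aptx with Slc25a51 and Dcaf10, and Trp53inp1 with Map3k7 and Usp45. All of these profiles share the libraries and their depth.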

How the data were processed

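Reads were turned into counts per gene ID by the authors, who deposited 1 count table per library. The submitters' processing notes name HISAT2, SAMtools, HTSeq and the build mm10, while versions, annotation release and strandedness are not stated there. Symbols, positions and exon lengths came from GENCODE M21 (GRCm38), which holds 52073 of the 56923 IDs. The deposited ID version was higher than in that release for 52036 of them, all 10 members included. The 5 summary lines of each table were left out, of which reads with no feature were 67.3% to 75.4% of all counted.

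Counts were tested with edgeR 4.0.16 in R 4.3.3 (robust quasi-likelihood fit, TMM scaling, filterByExpr, group only, 7 vector against 6 PSGL1_KO libraries, two-sided). P-values were adjusted by Benjamini-Hochberg over all IDs kept. CPM values are on TMM-scaled library sizes. Counts in 1 library ran from 65 for Nbn to 4602 for Rad23b. Precision did not follow depth alone. The SD of log2 CPM within groups was 0.43 for Rpa3, at 498 to 998 counts, and 0.15 for Rad54b, at 123 to 214 counts. Alternatives were DESeq2 1.42.0, its size factors in edgeR, no filter, scaling on the stretch genes, each library left out, a replicate block, and the first digit of the file number as a covariate, by itself and in separate fits. Interaction, stretch scaling with the covariate, and file number 3 against 7 were also fitted. The last 2 of these were added after the data had been seen. The fits were tested on simulated counts. No 2 libraries of a group agreed within sampling noise.

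The members and lists were chosen with earlier results of these data known. Named are all members, every listed pathway gene of the stretches that passed the filter (1 listed gene is not reported here), and for each member the 2 most alike protein-coding genes with a mean of at least 10 CPM that do not overlap it. Analysis of exons or isoforms was not possible from counts per gene.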

Additional observations from a re-analysis of the deposited data

Results flagged for a closer look

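Of the 20 sets of values examined for a single library apart from its group (10 members in each of 2 groups), 2 held one, and chance gives about 1 in 20. Aptx in vector replicate 2 was at 37.9 CPM, below the next lowest vector library at 51.8 CPM and the highest at 60.9 CPM. Trp53inp1 in vector replicate 1 was at 159 CPM, above the next vector library at 116 CPM and the lowest at 90.5 CPM. Both libraries have file numbers beginning with 3.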

How the results depend on the processing

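The group call of 0 members rests on a fit with 11 residual degrees of freedom, to which the fit adds information on spread shared across IDs. The 2 libraries a group of file number 3 give little precision, and Nbn at 65 to 155 counts has the widest counting error. The replicate numbers of the titles did not pair the libraries, with correlations of their deviations of 0.60, 0.32, -0.05, 0.28, 0.02 and 0.43 for numbers 1 to 6, and only numbers 1 and 6 correlated best with their own. With deviations taken within file number, the correlations were 0.016, 0.016, -0.17, 0.045, -0.11 and 0.30. With a replicate block, 2329 IDs were called in place of 1512, none of them a member, and 2 pathway genes in place of 1.

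Over all IDs, 2814 were called with the file number in the model, 3681 with stretch scaling as well, and 2447 within file number 3. Of the members, 1 was called by DESeq2, 2 with stretch scaling, 2 with the file number in the model, 4 with both, and 2 within file number 7. Of the 15 pathway genes, 0 passed with stretch scaling, 7 with stretch scaling and the file number (1 higher and 6 lower), and 2 each without the filter, with the file number, within file number 7 and within file number 3. The interaction gave 203 IDs, 319 without the filter and 596 by DESeq2. Within the PSGL1_KO libraries 2 members differed between file numbers, in place of 4. Leaving out each library in turn gave 1196 to 1607 IDs, 0 members, 1 to 2 pathway genes, 7 to 591 interaction IDs with 0 members, and 3379 to 4664 IDs and 3 to 5 members between file numbers, and 1 to 3 members with the file number in the model.

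Direction changed as follows, on the log2 scale, and the cause was not tested. With stretch scaling the group difference was -0.18 for Xpa, -0.19 for Rad23b, -0.14 for Aptx, -0.19 for Rrm2b, -0.13 for Trp53inp1, -0.18 for Mms22l, -0.077 for Orc3, -0.15 for Kif24 and -0.0067 for Ccnc. With the file number as well these were -0.21, -0.20, -0.13, -0.18, -0.14, -0.19, -0.11, -0.16 and -0.0052. With the file number alone Xpa was at -0.017 and Rad23b at -0.0023, and with the replicate block Kif24 at -0.020. Within file number 7, Xpa was at -0.11, Rad23b at -0.12, Aptx at -0.13, Mms22l at -0.062 and Casp8ap2 at 0.073. Within file number 3, Fancg was at 0.13, Rrm2b at -0.22, Sem1 at 0.35, Rnf20 at 0.098, Zbtb5 at 0.067, Melk at 0.50 and Kif24 at -0.19. File number 3 against 7 turned for Aptx with stretch scaling (-0.18), without the filter (-0.028) and within vector libraries (-0.35), and for Rad23b within vector libraries (-0.019). Leaving out a library turned Xpa (-0.082 to 0.14), Rad23b (-0.060 to 0.095), Rrm2b (-0.053 to 0.14), Sem1 (-0.32 to 0.048), Mms22l (-0.022 to 0.10), Rnf20 (-0.064 to 0.035), Melk (-0.15 to 0.012), Smc2 (-0.25 to 0.075), Kif24 (-0.024 to 0.11), Casp8ap2 (-0.19 to 0.13) and, between file numbers, Aptx (-0.12 to 0.17). Every one of these turned values belongs to a gene that did not pass with group only or, for Aptx and Rad23b, between file numbers.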
